A study of Mus musculus with 26 samples.

Results

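The genes that make, sense, move and dispose of cholesterol were followed through 26 RNA sequencing libraries of mouse bone marrow cells. The list held 29 of the 52636 genes counted, chosen by symbol and matched through their Ensembl identifiers, and all 29 were found. It comprised 7 enzymes of the early mevalonate steps, 11 enzymes from squalene to cholesterol, 5 regulators, 3 intracellular transporters, 2 efflux pumps and 1 esterifying enzyme. The list had been named for synthesis and uptake, but none of its members is a lipoprotein receptor, and receptors from a related list are given separately.

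Cells build cholesterol from acetyl-CoA through mevalonate, farnesyl diphosphate, squalene and lanosterol. When sterol in the endoplasmic reticulum runs low, SCAP escorts the SREBP transcription factors to the Golgi for cleavage, and the cleaved factors raise transcription of nearly the whole pathway. When sterol is plentiful, INSIG proteins hold SCAP back, oxysterol receptors raise the efflux pumps, and SOAT1 stores surplus cholesterol as esters.

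The study asked what the neutrophil serine protease NSP4, the product of Prss57, does in granulocyte progenitors and mast cells. Wild-type and Prss57-/- granulocyte-macrophage progenitors (GMPs) and common myeloid progenitors (CMPs) were sorted from bone marrow, with 4 libraries per genotype and cell type. Bone marrow-derived mast cells (BMMCs) were grown from sorted GMPs with interleukin-3 and stem cell factor, with 5 libraries per genotype. Every BMMC label carries the tag P3, which the labels do not explain. The knockout was a germline deletion, with age-matched wild-type littermates as controls. By the study's supplement the strain lacking exon 2 of Prss57 served for its experiments apart from a single named set, which did not include the sequencing, and the labels give neither strain, age nor culture time.

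The progenitor libraries, GMP and CMP alike, were from females and shared 1 run and pool, whereas the BMMCs were from males and sequenced separately. Cell type, sex and run therefore cannot be told apart between BMMCs and GMPs. The paper calls the GMP and BMMC samples it sequenced biological replicates. The labels number the libraries but do not say that each came from its own animal. The p-values therefore measure the spread between these libraries. Reads on genes ranged from 35501671 to 51497962 per GMP library, from 32078404 to 53264762 per CMP library and from 18627626 to 28647216 per BMMC library. Levels are given as nRPKM, the authors' RPKM (reads scaled by gene length and depth) with a size factor per library as the measure of depth. Scaling by gene length allows levels of different genes to be set side by side. Libraries of a group still differed with gene length. In wild-type GMPs this was by -0.20 to 0.087 on the log2 scale per doubling of length, against the group mean.

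Prss57 followed the genotype labels. Its level was 123.5 to 198.4 nRPKM in wild-type GMPs and 0.03996 to 0.1776 nRPKM in Prss57-/- GMPs. In CMPs it was 17.02 to 32.03 nRPKM in the wild type, with 1 read in each Prss57-/- library. Wild-type BMMCs held 2 to 27 reads of Prss57 per library and Prss57-/- BMMCs held 0, which allows up to 3 reads per library.

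Marker genes followed the cell type labels. In both genotypes all 6 GMP markers, among them Mpo and Elane, rose in GMPs over CMPs, while all 6 erythroid and all 5 megakaryocyte markers fell. In BMMCs, 6 of 7 mast cell markers rose over GMPs in both genotypes, and their summed level was 24750 to 74750 nRPKM against 440.5 to 657.4 nRPKM in GMPs. When library 3 of the Prss57-/- BMMCs, described below, was left out, 6 mast cell markers rose and 1 fell in that genotype. Markers of other cells were present as well. The 7 macrophage markers summed to 1103 to 1730 nRPKM in 9 of the 10 BMMC libraries, with C1qb the most abundant, against 73.24 to 110.8 nRPKM in GMPs, and the 5 dendritic cell markers to 714.6 to 1575 nRPKM, with Cd74 the most abundant, against 30.23 to 56.32 nRPKM. The 5 megakaryocyte markers summed to 822.6 to 1160 nRPKM in BMMCs against 34.63 to 87.95 nRPKM in GMPs, but split in both genotypes, where Pf4, Itga2b and Vwf rose and Gp9 and Gp1bb fell. In GMPs the 6 late neutrophil markers summed to 818.6 to 5163 nRPKM, with S100a9 or S100a8 the most abundant, against 10.47 to 81.26 nRPKM in CMPs.

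Library 3 of the Prss57-/- BMMCs stood apart. Its correlation with the other 4 libraries of its group across genes was 0.873 to 0.903, and the other BMMC libraries had median correlations of 0.986 or more within their groups. In it the macrophage markers summed to 131.5 nRPKM, the dendritic cell markers to 63.41 nRPKM with Ccr7 at 0, and the mast cell markers to 74750 nRPKM, the highest of the 10 libraries. Libraries 1 and 2 of the Prss57-/- CMPs also stood apart, with a correlation of 0.897 between them, and differed in opposite directions with gene length, by 0.33 and -0.36 on the log2 scale per doubling of length against their group mean. Where leaving out one of these libraries changed the call of a member, this is stated, and the value without it is given for some genes and medians.

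Member levels differed widely in wild-type GMPs. Npc2, a soluble carrier of cholesterol in the lysosome, was the most abundant member at 205 ± 34.4 nRPKM (SD, n = 4) and lay above every other member in every library. Ebp, the sterol isomerase, followed at 65.1 ± 6.16 nRPKM and was again clear of the next. Below it, Scap at 31.6 ± 3.19 nRPKM, Srebf2 at 27.4 ± 4.39 nRPKM and Srebf1 at 23.1 ± 2.46 nRPKM came next, of which Srebf2 overlapped both of the others, so that 3 members of the sensing machinery were among the 5 most abundant. Srebf1 lay above the next member, Dhcr7, in every library. Abca1, an efflux pump, was lowest at 0.174 ± 0.1 nRPKM. In wild-type BMMCs, Npc1 at 57.6 ± 6.5 nRPKM and Abcg1 at 49.1 ± 8.08 nRPKM ranked directly after Npc2, and their ranges overlapped each other.

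The levels of 4 synthesis enzymes were uncertain, since the authors counted only uniquely aligned reads. Of the 50-base stretches in the longest coding transcript, 51.1% in Fdps, 45.9% in Acat2, 21.3% in Idi1 and 10.8% in Fdft1 also occurred in transcripts of genes elsewhere in the genome, from which a read of 50 bases can be lost. With genes that overlap the same locus included, these shares were 86.4%, 45.9%, 30.5% and 30.7%, and there a read has a single place but more than one gene. The stretch below, from exon 6 of Fdps, farnesyl diphosphate synthase, lies in the coding sequence at chr3:89095366-89095415 on the minus strand of GRCm38 (transcript sequence from GENCODE M21) and occurs unchanged in 5 other genes, of which 4 are pseudogenes and the other is Gm43738, which overlaps Fdps. Fdps was counted at 83 to 129 reads per wild-type GMP library and at 1 to 6 per wild-type BMMC library. The part of shared sequence in these counts was not tested.
Fdps: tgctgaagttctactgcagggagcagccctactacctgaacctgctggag

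Acat2 makes acetoacetyl-CoA and shared its stretches mainly with its paralog Acat3. Fdft1, squalene synthase, shared 18.3% of its exon bases with Ctsb on the opposite strand, and Tm7sf2, a sterol reductase, shared 12.1% with Vps51 on its own strand. Scap shared 13.2% with 5830462I19Rik and Hmgcs1 12.1% with Gm48342, both on the opposite strand. The libraries were made with a stranded kit, and whether counting used strand is not given in the sources used here.

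Promoter windows of 250 bases before and 50 after the start site were available from RefSeq (GRCm38.p6) for 23 of the 29 members, some with more than one start site. TCACNCCAC, letters of the sterol regulatory element that SREBP factors bind, was searched on both strands and found in 1 of the 23 members, Hmgcs1, against 1.24% of 32851 windows of the same length. CCAAT, the motif of NF-Y, was found in 20 of the 23 members and in 37.4% of all windows, and GGGCGG, a motif of Sp1, in 22 of the 23 and in 35.7% of all windows. These shares count members with any window that matched, while the shares of all windows count each window once. None of these motifs contains another, and a match describes letters only.

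Hmgcs1 encodes the cytosolic HMG-CoA synthase, the classic sterol-regulated enzyme early in the pathway, and its upstream sequence is shown for that reason. The 250 bases before its start site, chr13:119690101-119690350 on the plus strand, held TCACCCCAC (capitals) from 137 bases before the start site, with 3 matches of CCAAT and 2 of GGGCGG counted on both strands.
Hmgcs1: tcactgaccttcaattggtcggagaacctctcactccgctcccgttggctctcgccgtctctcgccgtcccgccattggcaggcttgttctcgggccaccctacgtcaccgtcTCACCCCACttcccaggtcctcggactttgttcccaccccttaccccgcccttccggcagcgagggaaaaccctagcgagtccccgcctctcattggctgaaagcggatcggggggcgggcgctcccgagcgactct

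**Figure D1:**
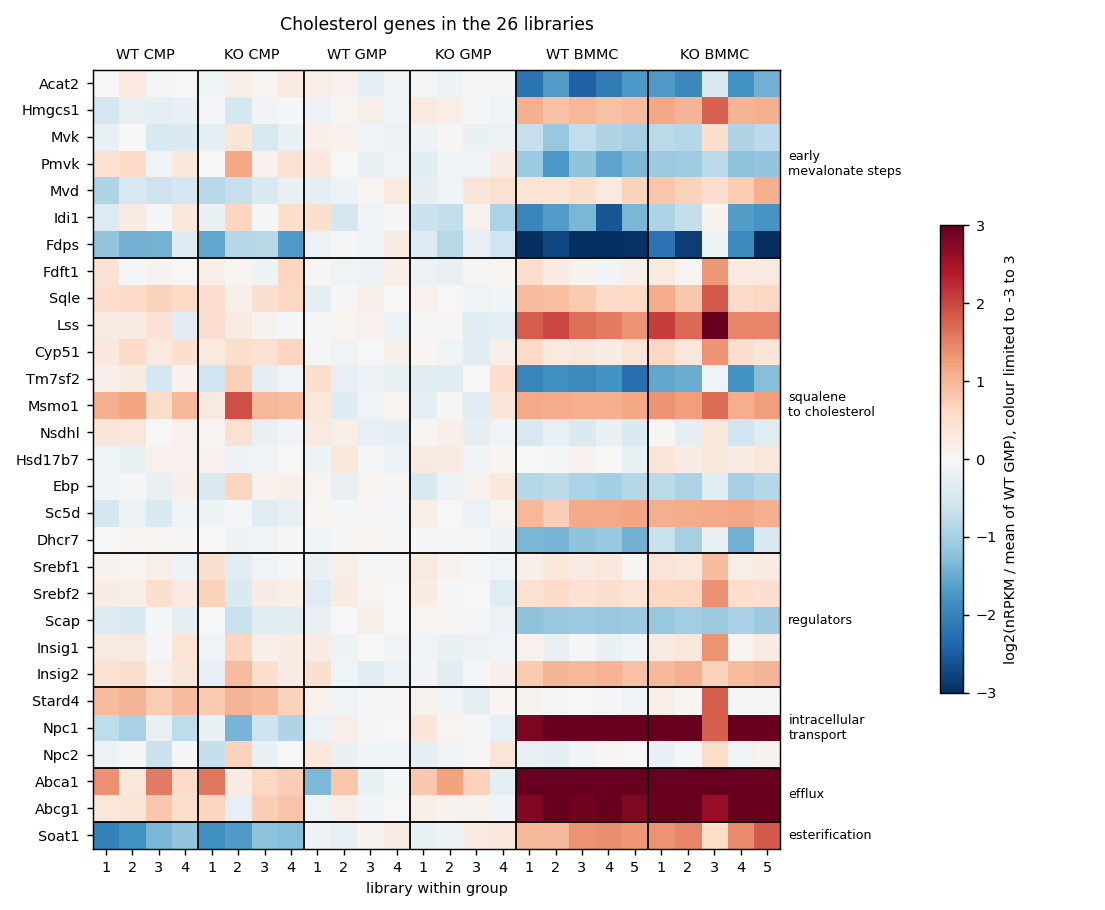
Level of each of the 29 members (rows, grouped by role) in each of the 26 libraries (columns), as log2 of nRPKM over the mean of the 4 wild-type GMP libraries, with colour limited to between -3 and 3. WT is wild type and KO is Prss57-/-. Npc1, Abca1 and Abcg1 were above the GMP mean in every BMMC library, Soat1 was below it in every CMP library, and library 3 of the Prss57-/- BMMCs differed from the other 9 BMMC libraries in most members.

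The first comparison set GMPs against the less committed CMPs within each genotype. Soat1, which esterifies cholesterol for storage, rose in GMPs in both genotypes, while Stard4, a cytosolic sterol carrier, and Msmo1, the sterol methyl oxidase, fell in both. Of the 29 members, 4 rose and 5 fell in the wild type at an adjusted p under 0.05, against 19.0% of all genes tested that rose and 18.8% that fell. In Prss57-/- cells 1 rose and 2 fell, against 10.6% and 10.9%. The median log2 fold change of the members was -0.04 in the wild type, beside -0.02 for all genes, and -0.13 in Prss57-/- cells, beside -0.03. Without library 2 of the Prss57-/- CMPs the latter 2 medians were -0.02 and -0.01, and without library 1 they were -0.10 and -0.02. Over the same contrast all 6 late neutrophil markers rose and all 6 erythroid and 5 megakaryocyte markers fell in both genotypes. Of the mast cell markers tested, 4 of 5 rose in the wild type and 5 of 6 in Prss57-/- cells. Of 7 macrophage markers 4 rose and 2 fell in the wild type, and 3 and 1 in Prss57-/- cells. Of 5 dendritic cell markers 3 fell in the wild type and 1 in Prss57-/- cells. The part of these other cells in the members' differences was not tested.

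Soat1 (ENSMUSG00000026600, chromosome 1, 156424525 to 156474331, minus strand) was at 12.5, 11.7, 14.8 and 16.3 nRPKM in wild-type GMPs and at 3.39, 3.94, 5.36 and 6.13 nRPKM in wild-type CMPs. In Prss57-/- cells it was at 11.9, 12.5, 16.7 and 17.2 nRPKM in GMPs and at 3.86, 4.26, 5.85 and 5.69 nRPKM in CMPs. Every GMP library was above every CMP library. The log2 fold change was 1.57 ± 0.20 (SE, edgeR, adjusted p = 0.0002) in the wild type and 1.61 ± 0.21 (adjusted p = 0.000876) in Prss57-/- cells, and Soat1 was the only member past the stricter thresholds the study used (2-fold or more, with adjusted p below 0.01), in both genotypes.

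Stard4 (ENSMUSG00000024378) was at 8.72, 7.42, 7.68 and 8.18 nRPKM in wild-type GMPs and at 15.3, 16.2, 13.6 and 15.2 nRPKM in wild-type CMPs. The groups did not overlap in this genotype or in Prss57-/- cells, where GMPs ranged from 6.67 to 8.61 nRPKM and CMPs from 13 to 16.1 nRPKM. The log2 fold change was -0.89 ± 0.10 (adjusted p = 8.69e-05) in the wild type and -0.86 ± 0.14 (adjusted p = 0.00265) in Prss57-/- cells.

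Msmo1 (ENSMUSG00000031604, chromosome 8, 64718139 to 64733792, minus strand) was at 15.6, 9.48, 11.2 and 13 nRPKM in wild-type GMPs and at 25.9, 28.1, 18 and 24.7 nRPKM in wild-type CMPs, without overlap. In Prss57-/- cells it was at 10.3, 12.6, 9.93 and 15.9 nRPKM in GMPs and at 14.8, 46.8, 24.6 and 23.6 nRPKM in CMPs. Library 1 of the CMPs fell within the GMP range and library 2 was far above the rest. These 2 libraries differed in opposite directions with gene length, as given above. Over all genes their summed nRPKM was 336085 and 785333, against 436562 and 480995 in libraries 3 and 4. The log2 fold change was -0.95 ± 0.18 (adjusted p = 0.0023) in the wild type and -1.11 ± 0.32 (adjusted p = 0.0361) in Prss57-/- cells. Without library 1 of the Prss57-/- CMPs the second value was -1.31 ± 0.26 and without library 2 it was -0.76 ± 0.22, both called. That call was lost when any of 5 single libraries was left out, with an adjusted p of 0.0635 to 0.107.

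By role, 2 of 7 early mevalonate enzymes rose in wild-type GMPs and none fell, beside the 19.0% and 18.8% of all genes given above. These were Mvd, mevalonate diphosphate decarboxylase, at a log2 fold change of 0.64 ± 0.17, and Fdps at 1.07 ± 0.30. Of the 11 enzymes from squalene to cholesterol none rose and 3 fell, which were Msmo1, Sqle (squalene epoxidase) at -0.57 ± 0.12 and Cyp51 (lanosterol demethylase) at -0.41 ± 0.12. Npc1, the lysosomal cholesterol exporter, rose by a log2 fold change of 0.67 ± 0.17, and the efflux pump Abcg1 fell, at -0.52 ± 0.14. None of the 5 regulators (Srebf1, Srebf2, Scap, Insig1, Insig2) passed the test in either genotype, and their log2 fold changes lay between -0.43 and 0.34. With the length slope of each library (the slope against gene length given above) as a covariate, Srebf2, Scap, Insig1 and Insig2 were called in the wild type and the last 3 of these in Prss57-/- cells. Scap was also called in the wild type with DESeq2, with the replicate block, and without library 3 of the CMPs or library 1 of the GMPs, the last of which called Insig2 too, and library size alone called Insig1 and Insig2. In Prss57-/- cells Scap was also called with all 26 libraries in 1 fit, and Scap, Insig1 and Insig2 without library 1 of the CMPs.

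Some settings called other members in the wild type as well. With the length slope Hmgcs1, at 0.33 ± 0.10, and Mvk, at 0.29 ± 0.11, rose as well and Pmvk fell, at -0.31 ± 0.10, and Abca1, Npc2 and Sc5d were called. Hmgcs1 was also called with DESeq2, with the replicate block and without CMP library 3 or GMP library 1, Pmvk with library size alone or without CMP library 3, Sc5d with DESeq2, and Abca1 with DESeq2 or without GMP library 2. In Prss57-/- cells Hmgcs1 and Pmvk were called with the length slope, and Pmvk also with all 26 libraries in 1 fit.

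Some calls in the wild type rested on single libraries. Cyp51 lost its call without CMP library 2 or 4 or GMP library 2 or 3, Fdps without CMP library 2 or GMP library 4, and Abcg1 without GMP library 3. With all 26 libraries in 1 fit Cyp51, Fdps, Abcg1 and Npc1 were not called, nor was Cyp51 with every gene of at least 1 count kept.

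The 6 members called in the wild type alone had log2 fold changes of the same sign in Prss57-/- cells, where Mvd was at 0.72 ± 0.23 (adjusted p = 0.0507), Cyp51 at -0.48 ± 0.16 (adjusted p = 0.052) and Npc1 at 0.81 ± 0.26 (adjusted p = 0.0528). Other fits called some of the 6 in Prss57-/- cells too, which were Cyp51, Mvd, Npc1 and Sqle with DESeq2, Cyp51 and Npc1 with limma voom, Mvd and Npc1 with the replicate block, and Cyp51, Mvd and Npc1 with all 26 libraries in 1 fit. RLE size factors and the filter of at least 10 counts in every library each called Cyp51, and the length slope called all but Fdps. Cyp51 and Npc1 were called without library 1 of the Prss57-/- CMPs, Abcg1, Cyp51 and Sqle without library 2, and Mvd without library 1 of the Prss57-/- GMPs. The difference between the genotypes was itself tested as an interaction. No member passed that test, nor did any other gene (0.0% of 15900 in edgeR, limma voom and DESeq2 alike, with 169 genes and 0 members at an unadjusted p under 0.05 in edgeR). Without library 1 of the Prss57-/- CMPs 8 members were called in that genotype, beside 45.5% of all genes, and without library 2 there were 6, beside 22.1%. With the length slope of each library as a covariate, 19 members were called in the wild type and 13 in Prss57-/- cells, against 29.5% and 31.2% of all genes called higher and 29.1% and 29.4% called lower.

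**Figure D2:**
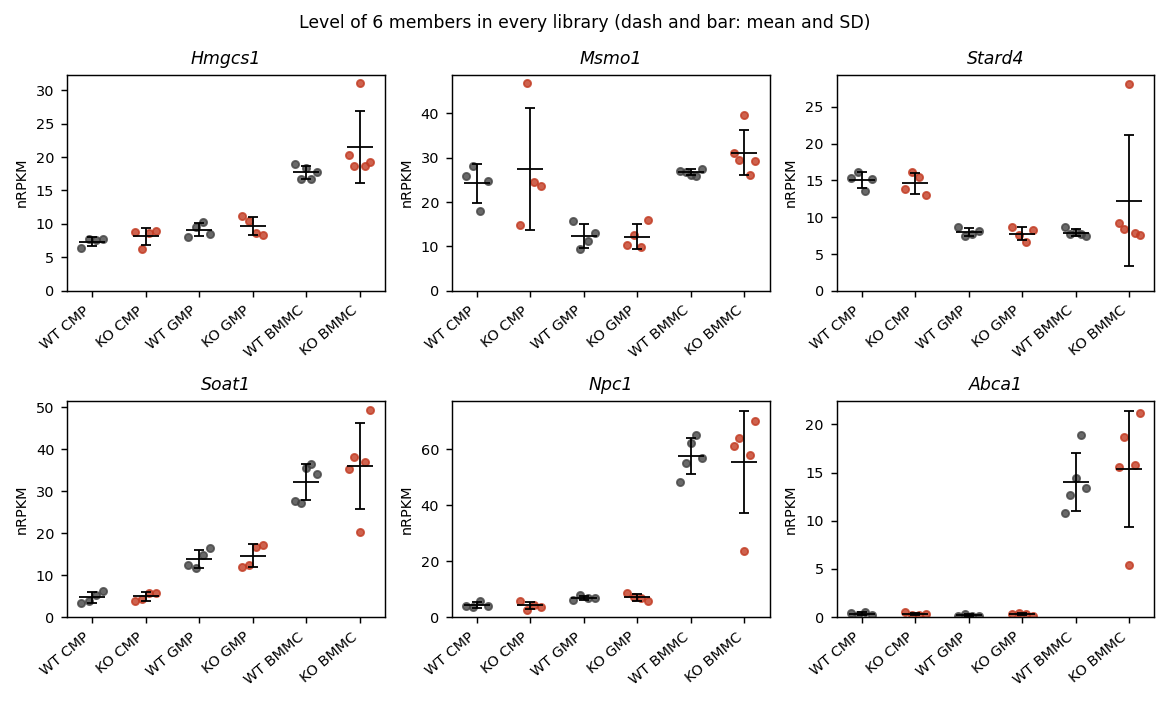
Levels in nRPKM (vertical axes, linear, starting at 0) of 6 members in every library, with each group's mean and SD as a dash and bar. Points are libraries, dark for wild type (WT) and red for Prss57-/- (KO). Soat1 was lowest in CMPs and highest in BMMCs, Stard4 was highest in CMPs with the exception of library 3 of the Prss57-/- BMMCs at 28.1 nRPKM, and Npc1 and Abca1 were above all progenitor libraries in every BMMC library.

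The second comparison set BMMCs against GMPs, the progenitor they were grown from, within each genotype. Both efflux pumps, the lysosomal exporter Npc1 and the esterifying enzyme Soat1 rose in BMMCs in both genotypes, while the synthesis enzymes moved in both directions. In the wild type 23 of 29 members were called at an adjusted p under 0.05, beside 81.5% of all genes tested, and in Prss57-/- cells 20 of 29, beside 73.9%. At these backgrounds a call by itself says little, so the stricter thresholds are also given. By those, 6 members rose and 7 fell in the wild type, against 27.3% of all genes that rose and 24.4% that fell, and 7 rose and 3 fell in Prss57-/- cells, against 25.6% and 22.3%. Without library 3 of the Prss57-/- BMMCs the latter were 6 and 5, against 27.0% and 24.1%. The wild-type GMP libraries served in the first comparison as well, as did the Prss57-/- ones.

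The largest fold change of the 29 members in both genotypes was that of an efflux pump. Abca1 (ENSMUSG00000015243, chromosome 4, 53030787 to 53159895, minus strand), which loads cholesterol onto apolipoproteins, was at 0.0683, 0.309, 0.15 and 0.167 nRPKM in wild-type GMPs and at 10.8, 12.7, 14.4, 18.9 and 13.4 nRPKM in wild-type BMMCs. Prss57-/- BMMCs were at 15.6, 18.7, 5.38, 15.8 and 21.2 nRPKM, of which the low value was library 3, and Prss57-/- GMPs at 0.144 to 0.404 nRPKM. No BMMC library overlapped the GMPs. The log2 fold change was 6.22 ± 0.36 (adjusted p = 1.12e-08) in the wild type and 5.65 ± 0.48 (adjusted p = 4.73e-06) in Prss57-/- cells.

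Abcg1, which exports cholesterol to lipoprotein particles, rose by a log2 fold change of 2.89 ± 0.13 (adjusted p = 1.41e-09) in the wild type and 3.19 ± 0.25 (adjusted p = 2.69e-06) in Prss57-/- cells. It was at 5.79 to 6.99 nRPKM in wild-type GMPs and at 42.6 to 61.6 nRPKM in wild-type BMMCs. Prss57-/- BMMCs were at 86.1, 63, 38.3, 49.6 and 83.4 nRPKM, with library 3 lowest again.

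Npc1, whose loss causes lysosomal cholesterol storage, was at 6.02, 7.85, 6.69 and 6.84 nRPKM in wild-type GMPs and at 48.4, 55.1, 62.4, 65.1 and 56.9 nRPKM in wild-type BMMCs. Its log2 fold change was 2.98 ± 0.12 (adjusted p = 4.38e-10), and in Prss57-/- cells it was 2.86 ± 0.31 (adjusted p = 2.09e-05), with BMMCs at 61.3, 64.1, 23.7, 58.1 and 70.1 nRPKM. Its partner Npc2 was not called in either genotype, at -0.19 ± 0.12 and -0.04 ± 0.19, nor was Stard4, at -0.11 ± 0.09 and 0.56 ± 0.40. Without library 3 the value of Stard4 in Prss57-/- cells was -0.0025 ± 0.11. Scaling by library size alone called Npc2, Stard4 and Insig1 in the wild type.

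Soat1 rose by 1.12 ± 0.13 (adjusted p = 5.25e-06) in the wild type and by 1.21 ± 0.24 (adjusted p = 0.00108) in Prss57-/- cells on the log2 scale. It was at 27.7, 27.2, 35.4, 36.6 and 34 nRPKM in wild-type BMMCs and at 35.2, 38.2, 20.3, 37 and 49.2 nRPKM in Prss57-/- BMMCs, all above the GMP libraries listed for the first comparison.

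These 4 genes were above GMPs also in the BMMC library with few macrophage and dendritic cell transcripts. In library 3 of the Prss57-/- BMMCs, where the macrophage markers summed to 131.5 nRPKM, Abca1 was at 5.38 nRPKM against at most 0.404 in any GMP library, and Npc1 at 23.7 nRPKM against at most 8.77. Abcg1 was at 38.3 nRPKM against at most 6.99, and Soat1 at 20.3 nRPKM against at most 17.2. All 4 were lower there than in the other 9 BMMC libraries, where those markers were high. How much of the difference between BMMCs and GMPs came from macrophages or dendritic cells in the cultures was not tested, and in bulk libraries a change in the share of cells and a change in RNA per cell cannot be told apart.

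In the early mevalonate steps of the wild type Hmgcs1 and Mvd rose and the other 5 fell, and in Prss57-/- cells Hmgcs1 and Mvd rose and 2 fell, where 40.8% of all genes rose and 40.8% fell in the wild type and 37.7% and 36.2% in Prss57-/- cells. Mvd lost its call in the wild type without BMMC library 5 or GMP library 2 and in Prss57-/- cells without GMP library 2, and in both with the replicate block or library size alone. Hmgcs1 was at 8.12 to 10.2 nRPKM in wild-type GMPs and 16.7 to 19 nRPKM in wild-type BMMCs, a log2 fold change of 0.86 ± 0.09, and of 1.06 ± 0.18 in Prss57-/- cells. Pmvk, phosphomevalonate kinase, went the other way, from 10.4 to 15.1 nRPKM in wild-type GMPs to 3.67 to 5.6 nRPKM in BMMCs. Its log2 fold change was -1.48 ± 0.16 (adjusted p = 2.82e-06) in the wild type and -1.10 ± 0.15 (adjusted p = 0.000107) in Prss57-/- cells. Acat2 changed by -2.08 ± 0.17 (adjusted p = 2.49e-07) and -1.37 ± 0.29 (adjusted p = 0.00192), with the uncertainty of its shared sequence. Fdps and Idi1 (isopentenyl diphosphate isomerase) were also called lower in the wild type, on 1 to 6 and 9 to 23 reads per BMMC library.

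Of the 11 enzymes from squalene to cholesterol, 5 rose and 4 fell in the wild type and 5 and 3 in Prss57-/- cells, shares of 45.5% and 36.4%, and 45.5% and 27.3%, beside those of all genes just given. Lss, which closes the sterol rings, rose from 2.53 to 3.09 nRPKM in wild-type GMPs to 7.27 to 11.3 nRPKM in BMMCs. Its log2 fold change was 1.60 ± 0.13 (adjusted p = 2.95e-07) in the wild type and 2.13 ± 0.35 (adjusted p = 0.000383) in Prss57-/- cells. Msmo1, Sc5d (lathosterol oxidase), Sqle and Cyp51 rose in both genotypes, by log2 fold changes of 1.02, 0.96, 0.68 and 0.29 in the wild type. The call of Cyp51 was lost in the wild type without GMP library 2 and in Prss57-/- cells without GMP library 2 or 3, in the wild type with all 26 libraries in 1 fit or with every gene of at least 1 count kept, and in both with the replicate block or library size alone.

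Dhcr7, the reductase of the last step, fell. It was at 17.3, 19.4, 19.9 and 19.5 nRPKM in wild-type GMPs and at 7.4, 7.22, 8.2, 8.66 and 6.97 nRPKM in wild-type BMMCs, a log2 fold change of -1.40 ± 0.09 (adjusted p = 2.72e-08). In Prss57-/- cells it was -0.73 ± 0.21 (adjusted p = 0.011), with BMMCs spread from 6.99 to 16.6 nRPKM. Tm7sf2 changed by -2.05 ± 0.19 (adjusted p = 8.52e-07) and -1.22 ± 0.35 (adjusted p = 0.0105), and Ebp by -0.98 ± 0.09 (adjusted p = 7.25e-07) and -0.85 ± 0.18 (adjusted p = 0.00182). Hsd17b7 (a sterol ketoreductase) and Fdft1 were called in neither genotype. In Prss57-/- cells Fdft1 and Fdps were called with all 26 libraries in 1 fit, and Fdps and Mvk with limma voom.

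Among the regulators Scap fell, from 27.6 to 35.4 nRPKM in wild-type GMPs to 13.8 to 14.9 nRPKM in BMMCs, and its 10 BMMC libraries, library 3 included, lay between 13.8 and 16 nRPKM. The log2 fold change was -1.22 ± 0.08 (adjusted p = 4.39e-08) in the wild type and -1.14 ± 0.08 (adjusted p = 1.62e-06) in Prss57-/- cells. Insig2 rose by 0.85 ± 0.16 and 0.92 ± 0.13 on the log2 scale, and Srebf2, the factor most tied to sterol synthesis, by 0.38 ± 0.11 and 0.69 ± 0.21, a call lost in both with library size alone and in the wild type with all 26 libraries in 1 fit. Srebf1 was not called, at 0.12 ± 0.09 and 0.28 ± 0.16. Insig1 was at -0.18 ± 0.11 (adjusted p = 0.166) in the wild type and was called higher at 0.60 ± 0.25 (adjusted p = 0.049) in Prss57-/- cells. That call was lost with limma voom, the length slope, library size alone or the replicate block, and without BMMC library 2 or any single GMP library.

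In both genotypes 13 members rose and 6 fell, and no member was called in opposite directions. The share of all genes called in the same direction in both genotypes was not computed. Singly, 81.5% of all genes were called in the wild type and 73.9% in Prss57-/- cells. Without library 3 of the Prss57-/- BMMCs, 24 members were called there, beside 80.3% of all genes, with none of the 20 lost. Fdps, Idi1, Mvk (mevalonate kinase) and Nsdhl (a sterol dehydrogenase) were the additions. Without it the log2 fold changes of Dhcr7 and Tm7sf2 were -0.88 ± 0.17 and -1.61 ± 0.22, and those of Lss and Insig1 1.73 ± 0.16 and 0.31 ± 0.09. The interaction of genotype with this contrast was not called for any member or other gene (0.0% of 15596 in edgeR, limma voom and DESeq2 alike), with 324 genes, 4 of them members, at an unadjusted p under 0.05 in edgeR. Over the same contrast 10 of 11 cell cycle genes fell in the wild type and 11 of 11 in Prss57-/- cells, with a summed level of 184.4 to 343.2 nRPKM in BMMCs against 874 to 1009 nRPKM in GMPs. The part of proliferation in the members' differences was not tested.

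**Figure D3:**
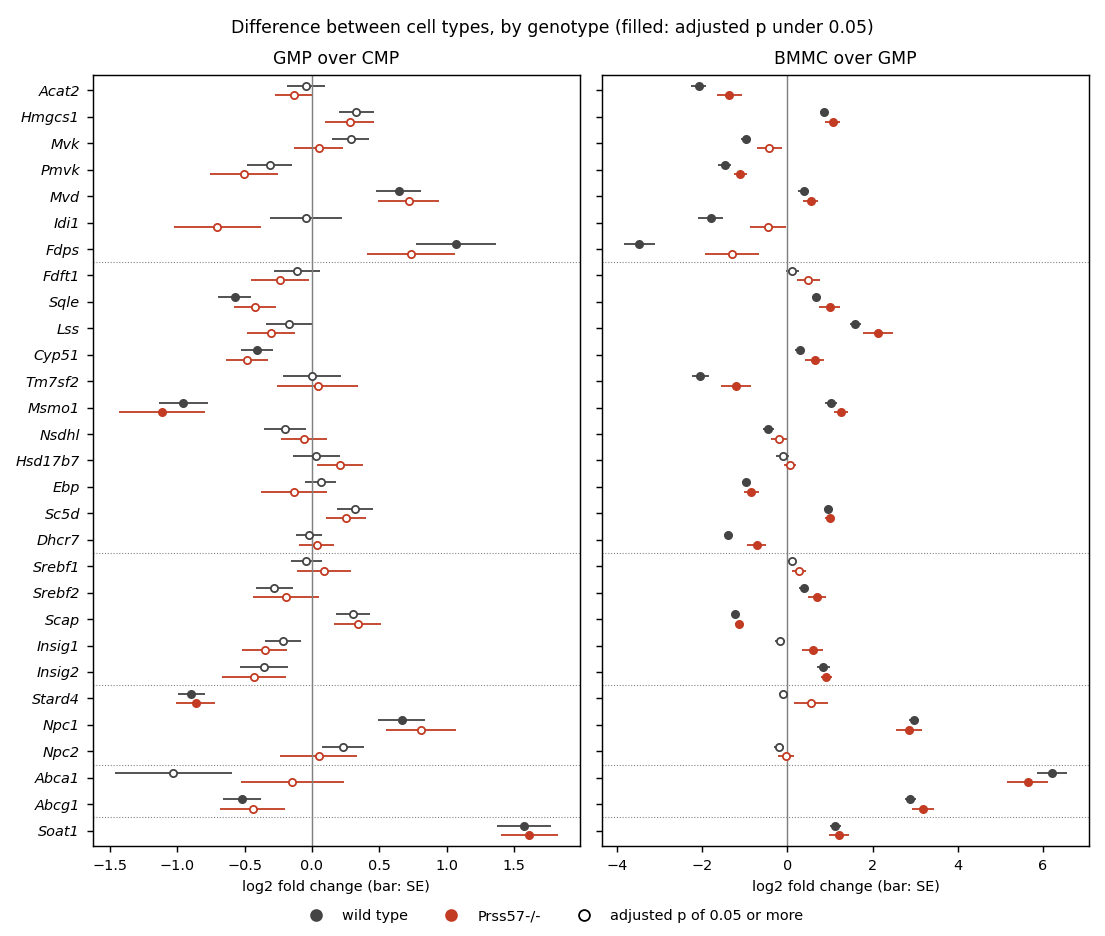
Log2 fold change (horizontal axes, bars are SE) of each member between GMPs and CMPs (left) and between BMMCs and GMPs (right), dark for wild type and red for Prss57-/-. Filled points had an adjusted p under 0.05. Abca1 was the member farthest from 0 on the right in both genotypes, at 6.22 and 5.65, and Soat1 on the left, at 1.57 and 1.61.

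Loss of Prss57 was then compared within each cell type, the question the libraries were made for. No member passed the test in any of the 3 cell types, in edgeR or in DESeq2. In GMPs 0 of 29 members were called, beside 0.0136% of all genes (2 of 14689, and 5 with DESeq2), and 119 genes but no member had an unadjusted p under 0.05. In CMPs 0 of 29 were called, beside 0.0067% (1 of 14916, and 5 with DESeq2), with 76 genes and no member at an unadjusted p under 0.05. The genes tested in GMPs and in CMPs included Prss57, the deleted gene, whose levels are given above. In BMMCs 0 of 28 were called, beside 0.0% of 13938 genes with edgeR and likewise with DESeq2, and 332 genes, 5 of them members, had an unadjusted p under 0.05. Fdps was not tested in BMMCs because its counts were too low.

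In GMPs the smallest unadjusted p-values belonged to Fdps and Abca1. Fdps was at 1.21, 1.33, 1.3 and 1.66 nRPKM in wild-type GMPs and at 1.06, 0.769, 1.17 and 0.91 nRPKM in Prss57-/- GMPs, without overlap, a log2 fold change of -0.49 ± 0.22 (edgeR, unadjusted p = 0.0506, adjusted p = 1). It was the only member whose genotypes did not overlap in GMPs, where 0.994% of all genes did not. Abca1 was at 0.70 ± 0.43 on the log2 scale (adjusted p = 1) from levels under 0.41 nRPKM in every GMP library. Hmgcs1 was at 0.08 ± 0.13, Sqle at -0.02 ± 0.12 and Srebf2 at -0.02 ± 0.15. With single libraries left out Abca1 ranged from 0.44 to 1.14 and Hmgcs1 from 0.017 to 0.15.

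In CMPs the smallest unadjusted p-values were those of Sqle and Dhcr7, at log2 fold changes of -0.16 ± 0.15 and -0.12 ± 0.13 (edgeR, adjusted p = 0.9999 for both). Hmgcs1 was at 0.14 ± 0.17 and Srebf2 at -0.10 ± 0.23. With single libraries left out Hmgcs1 ranged from 0.069 to 0.25 and Sqle from -0.22 to -0.072. No member's genotypes were without overlap in CMPs, where 0.818% of all genes were. Leaving out library 1 or library 2 of the Prss57-/- CMPs, which stood apart, also gave 0 members called.

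In BMMCs Hsd17b7 and Dhcr7 had the smallest unadjusted p-values. Hsd17b7 was at 1.34, 1.31, 1.48, 1.33 and 1.16 nRPKM in the wild type and at 1.72, 1.57, 1.71, 1.56 and 1.7 nRPKM in Prss57-/- cells, so that every Prss57-/- library was above every wild-type library. Its log2 fold change was 0.32 ± 0.10 (edgeR, unadjusted p = 0.00911, adjusted p = 0.9999). It was the only member without overlap, beside 0.717% of all genes, and remained so without library 3, beside 2.39%.

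Dhcr7 was at 7.4, 7.22, 8.2, 8.66 and 6.97 nRPKM in wild-type BMMCs and at 11.9, 9.58, 16.6, 6.99 and 13.5 nRPKM in Prss57-/- BMMCs, a log2 fold change of 0.60 ± 0.20 (unadjusted p = 0.0131, adjusted p = 0.9999). Library 4 of the Prss57-/- cells lay within the wild-type range. Hmgcs1 was at 0.28 ± 0.14, Sqle at 0.29 ± 0.23 and Srebf2 at 0.29 ± 0.16.

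The members' median log2 fold change in BMMCs was 0.29, beside 0.01 for all genes, and it depended on library 3. Without that library it was 0.10, beside -0.01 for all genes. Srebf2 was then at 0.09 ± 0.06, Sqle at 0.01 ± 0.12, Hmgcs1 at 0.11 ± 0.06, Hsd17b7 at 0.30 ± 0.10 and Dhcr7 at 0.44 ± 0.16, and again no member was called, with the lowest adjusted p among members at 0.493 for Insig1.

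**Figure D4:**
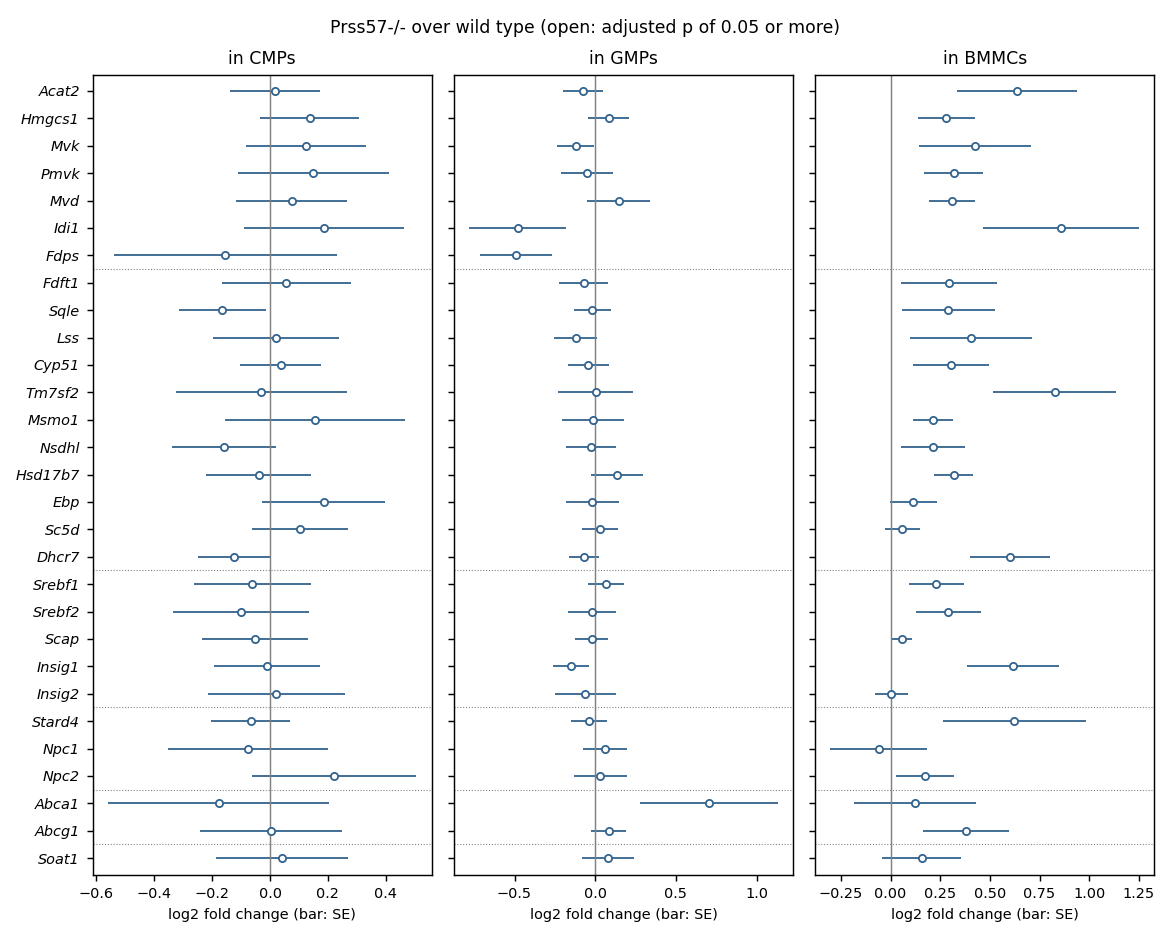
Log2 fold change of Prss57-/- over wild type (horizontal axes, which differ in range between panels, bars are SE) for each member in CMPs, GMPs and BMMCs. All points are open, meaning an adjusted p of 0.05 or more. Fdps is missing in BMMCs because it was not tested there, and most members lie right of 0 in BMMCs with library 3 of the Prss57-/- cells included, at a median of 0.29.

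Library 3 of the Prss57-/- BMMCs had most synthesis enzymes high and the efflux and esterification genes low. Since it is 1 library, its values are given by their place among the other 9. Of the 29 members, 20 were above all 9 other BMMC libraries, 5 were below all 9 and 4 were inside their range, while of all genes 34.8% were above and 36.9% below. Among the synthesis enzymes 15 of 18 were above and none was below. The 5 below were Abca1, Abcg1, Npc1, Soat1 and Insig2.

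Of the 5 regulators, 3 were above the other 9 libraries. Srebf2 was at 71.4 nRPKM against 36.6 to 41.1 in the wild type and 38.7 to 42.2 in the other Prss57-/- BMMCs, and Insig1, itself an SREBP target gene, was at 26.2 nRPKM against 8.83 to 11.4 and 11 to 13.1. Stard4, another SREBP target, was at 28.1 nRPKM against 7.42 to 8.67 and 7.65 to 9.25, or 3.49 times the mean of the other 9. Lss was 2.61 times, Sqle 2.08 times and Hmgcs1 1.69 times that mean, and Mvd was inside the range at 0.909 times. Scap was also inside, at 0.988 times.

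Abca1 was at 0.342 times the mean of the other 9 libraries, Npc1 at 0.394 times, Soat1 at 0.57 times and Abcg1 at 0.653 times. All 7 macrophage and all 5 dendritic cell markers were below the other 9 libraries in the same library, while 5 of 7 mast cell markers were above them, Tpsb2 was inside their range and Hdc was below. The mast cell protease gene Cma1 was at 14490 nRPKM against 1565 to 3407 in the other Prss57-/- BMMCs, and Hdc, which makes histamine, at 88.6 nRPKM against 135.0 to 150.1. The part of the cell mixture in the sterol gene values of this library was not tested.

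**Figure D5:**
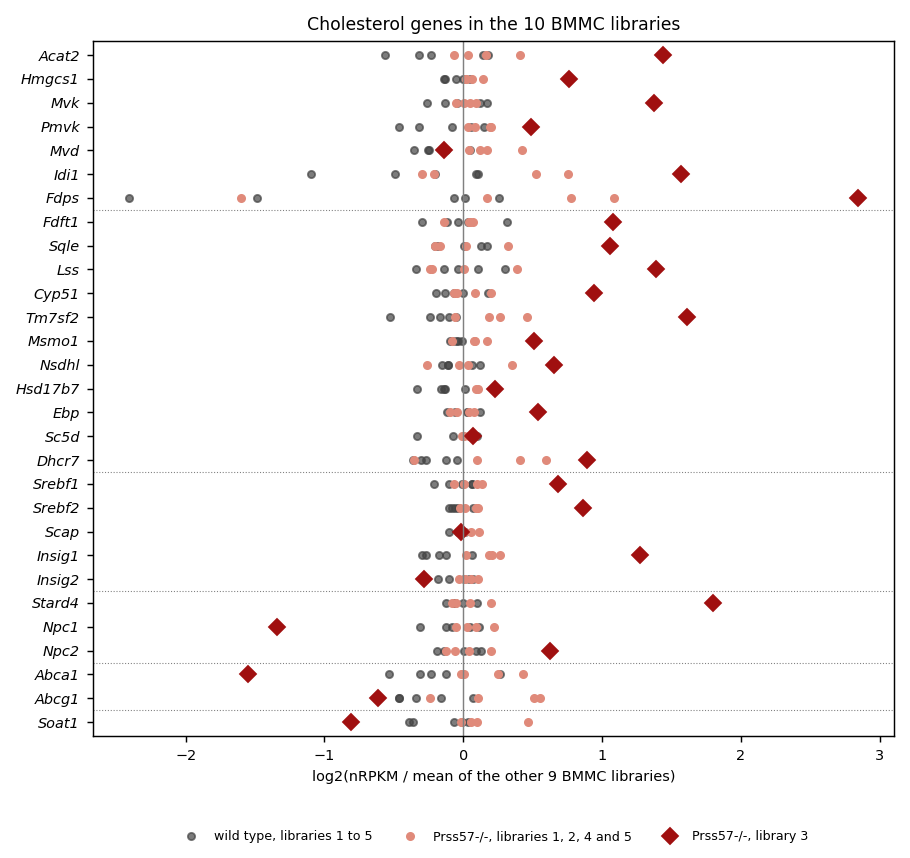
Level of each member in the 10 BMMC libraries, as log2 of nRPKM over the mean of the 9 libraries other than library 3 of the Prss57-/- cells. Diamonds mark library 3, dark points the 5 wild-type libraries and light points the other 4 Prss57-/- libraries. Diamonds lie right of the other points for 20 members and left of them for Abca1, Abcg1, Npc1, Soat1 and Insig2.

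Related genes outside the list were counted in the same tests, and their counts are to be read beside the shares of all genes. In GMPs over CMPs 19.0% rose and 18.8% fell in the wild type and 10.6% and 10.9% in Prss57-/- cells, and in BMMCs over GMPs 40.8% and 40.8%, and 37.7% and 36.2%. Of 8 sterol transfer and lipoprotein receptor genes, 5 rose and 1 fell in GMPs over CMPs in each genotype, and 4 rose and 2 fell in BMMCs over GMPs in each. Vldlr, a lipoprotein receptor, was at 0.413 to 0.68 nRPKM in wild-type CMPs, 0.0337 to 0.0818 nRPKM in wild-type GMPs and 6.38 to 7.72 nRPKM in wild-type BMMCs. Its log2 fold change was -3.06 ± 0.31 in GMPs over CMPs and 6.66 ± 0.20 in BMMCs over GMPs, and in Prss57-/- cells -2.29 ± 0.37 and 5.53 ± 0.94. Library 3 of the Prss57-/- BMMCs was again apart, at 0.183 nRPKM against 5.5 to 7.77 in the other 4, and without it the value was 5.82 ± 0.30.

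The receptor Lrp1 rose in GMPs over CMPs by a log2 fold change of 2.46 ± 0.33 in the wild type and 2.94 ± 0.38 in Prss57-/- cells, and in BMMCs over GMPs by 3.31 ± 0.30 and 3.47 ± 0.69. It was at 1.03 nRPKM in library 3 of the Prss57-/- BMMCs and at 11 to 21.6 nRPKM in the other 4, and without it the value for BMMCs over GMPs was 3.77 ± 0.25. Without library 1 of the Prss57-/- CMPs that for GMPs over CMPs was 3.45 ± 0.26. Lrp8 rose in GMPs over CMPs by 1.44 ± 0.23 and 1.20 ± 0.29 and fell in BMMCs over GMPs, at -1.19 ± 0.15 and -1.16 ± 0.16. Gramd1b, which carries sterol from the plasma membrane, rose in BMMCs over GMPs by 2.62 ± 0.14 and 2.53 ± 0.14.

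Of the SREBP-1 fatty acid genes, 4 rose and 3 fell of 9 tested in wild-type GMPs over CMPs, and 4 fell and none rose in Prss57-/- cells, or 4 and 4 without library 1 of the CMPs. Fads2 and Acss2, for fatty acid desaturation and acetyl-CoA supply, fell in both, by log2 fold changes of -1.92 ± 0.15 and -1.54 ± 0.14 in the wild type and -1.81 ± 0.31 and -1.33 ± 0.20 in Prss57-/- cells. In BMMCs over GMPs 4 of 10 rose and 4 fell in the wild type, and 4 rose and none fell in Prss57-/- cells, or 4 and 3 without BMMC library 3. Scd1, stearoyl-CoA desaturase, rose by 4.16 ± 0.65 and 6.62 ± 1.19, the second with library 3 at 15.9 nRPKM and the other 4 at 0.539 to 3.31. Without library 3 the second value was 5.15 ± 0.57. Me1, malic enzyme, was at 0.846 to 1.19 nRPKM in wild-type BMMCs and at 0 to 0.0109 nRPKM, or at most 2 reads, in wild-type GMPs.

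Of 8 genes of the non-sterol isoprenoid branch, 3 rose and 5 fell in BMMCs over GMPs in both genotypes, led by Pdss1 of ubiquinone synthesis at -3.02 ± 0.23 and -3.16 ± 0.35. In GMPs over CMPs 1 rose and 1 fell in the wild type and 1 rose in Prss57-/- cells, or 1 and 1 without library 1 of the CMPs. The SREBP processing and sterol-regulated degradation genes had 2 that rose and 1 that fell of 6 in wild-type GMPs over CMPs and 1 that rose in Prss57-/- cells (2 and 1 without library 1 of the CMPs), and in BMMCs over GMPs 2 and 3 in the wild type and 2 and 2 in Prss57-/- cells. Erlin1, which helps sterol-driven degradation, rose in GMPs over CMPs by 0.58 ± 0.09 and 0.60 ± 0.13, and changed by -1.45 ± 0.10 and -1.54 ± 0.13 in BMMCs over GMPs.

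Among the 4 oxysterol receptors and partners, 2 rose in wild-type GMPs over CMPs and none was called in Prss57-/- cells, while in BMMCs over GMPs 1 rose and 1 fell in the wild type and 2 and 1 in Prss57-/- cells. Without library 1 of the Prss57-/- CMPs 2 rose there too, and without BMMC library 3 the last counts were 3 and 1. Rxra, the partner of the oxysterol receptors, rose in BMMCs by 3.67 ± 0.19 and 3.82 ± 0.27. Of the 11 cell cycle genes 2 rose and 1 fell in wild-type GMPs over CMPs and none was called in Prss57-/- cells, where 2 rose and 1 fell without library 1 of the CMPs. In the genotype comparisons no gene of these related lists was called in any cell type.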

How the data were processed

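RNA was sequenced from 26 libraries as single-end 50-base reads after a stranded total RNA preparation. The authors aligned reads with GSNAP to GRCm38 and deposited, per gene, counts of uniquely aligned reads within exons. They also deposited RPKM values rescaled by a size factor per library (nRPKM), which were used as deposited for levels. For each gene the ratio of count to nRPKM, corrected for the size factor, did not vary between libraries beyond a relative difference of 1.5e-14. No pair of libraries agreed within sampling noise (smallest chi-square per degree of freedom 9.61 within a group).

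Groups came from the labels. Each comparison was fitted to its own 2 groups with the edgeR 4.0.16 quasi-likelihood test (R 4.3.3) on counts, with TMM normalization, the default expression filter and Benjamini-Hochberg adjustment over all genes tested. The study used limma voom. Called means an adjusted p under 0.05, and the stricter rule an adjusted p under 0.01 with a change of 2-fold. SE was the log2 fold change divided by the square root of the F statistic. Fold changes are on the log2 scale of TMM-normalized counts. The scripts were tested on simulated data.

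Alternatives were limma 3.58.1 voom, DESeq2 1.42.0, other scalings and filters, all 26 libraries in 1 fit, a replicate block, leaving out each library, and, chosen after seeing the data, each library's gene-length slope as a covariate. The slope was computed over genes with at least 100 reads on average. Levels and figures used Python 3.11.15, pandas 2.3.3, numpy 2.4.6 and matplotlib 3.10.9. Replicate numbers were not treated as pairs in the main test.

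Members and lists were chosen with earlier results of these data known. Members with full statistics were those called in both genotypes, up to 5 in each direction by size of change in the wild type, and those against the majority of their role, and for Prss57 loss the 2 with the smallest unadjusted p in each cell type with Srebf2, Hmgcs1 and Sqle. From each related list up to 3 called genes were named by size of change. B cell markers were also summed and were at 0 to 0.3412 nRPKM in every library.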

Additional observations from a re-analysis of the deposited data

Results flagged for a closer look

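In 174 tests, each of 1 member in 1 group, the value of 1 library stood out by Dixon's criterion in 19, and chance flags about 1 in 20 groups. Of the 19 values, 14 belonged to library 3 of the Prss57-/- BMMCs. The share of all genes that this criterion flags was not computed. In that library 34.8% of all genes tested were above all 9 other BMMC libraries and 36.9% below. In early mevalonate steps Acat2 was at 6.707 nRPKM there against 2.371 to 3.289 in the other 4 libraries, Hmgcs1 at 31.1 against 18.6 to 20.27, Mvk at 18.8 against 7.009 to 7.713 and Fdps at 1.247 against 0.05727 to 0.3684, the last on at most 31 reads. From squalene to cholesterol Fdft1 was at 3.492 nRPKM, Lss at 24.0, Cyp51 at 19.85, Tm7sf2 at 5.144 and Ebp at 50.9, each above the other 4. The regulators Srebf1, Srebf2 and Insig1 were at 44.11, 71.37 and 26.2 nRPKM, and Stard4 at 28.14 nRPKM, again above. Npc1 was the only one below, at 23.7 nRPKM against 58.13 to 70.08.

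The other 5 lay in progenitors. Hmgcs1 was low in library 1 of the wild-type CMPs, at 6.345 nRPKM against 7.604 to 7.764, and in library 2 of the Prss57-/- CMPs, at 6.29 nRPKM against 8.627 to 8.957. Mvk was high in library 2 of the Prss57-/- GMPs, at 13.48 nRPKM against 11.53 to 11.84. In wild-type GMPs Tm7sf2 was high in library 1, at 7.893 nRPKM against 4.774 to 4.97, and Ebp was low in library 2, at 55.91 nRPKM against 67.17 to 68.78. The part of cell mixture or RNA quality in these values was not tested.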

How the results depend on the processing

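Calls in GMPs over CMPs depended most on the processing. In the wild type, 9 members were called, and 5 with all 26 libraries in 1 fit, 19 with the length slope as a covariate and 1 by the stricter rule, with 7 to 12 as single libraries were left out. In Prss57-/- cells 3 were called, and 8 with all 26 libraries, 7 with DESeq2, 13 with the length slope, 5 with limma voom and 1 by the stricter rule, with 2 to 8 as single libraries were left out. Over all genes these counts were 5664 in the wild type, and 4881 with all 26 libraries and 8773 with the length slope. Leaving out single libraries gave 4029 to 7596. In Prss57-/- cells they were 3222, with 6577 for all 26 libraries, 5074 for DESeq2, 9073 for the length slope and 3336 for limma voom. Leaving out single libraries gave 1891 to 6924 there. By the stricter rule 940 genes rose and 978 fell in the wild type, and 604 and 655 in Prss57-/- cells. Msmo1 in Prss57-/- cells lost its call in 5 of the fits with a library left out. In BMMCs over GMPs the stricter rule left 13 of 23 and 10 of 20 members. Leaving out libraries gave 21 to 23 and 17 to 24, beside 11743 to 12470 and 10288 to 11962 of all genes. The causes were not tested.

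With the replicate block 11 and 5 members were called in GMPs over CMPs and 21 and 17 in BMMCs over GMPs, in the wild type and Prss57-/- cells, beside 6434, 3735, 11496 and 9797 of all genes (5664, 3222, 12030 and 11032 without it). In no comparison did every same-numbered pair deviate together at a correlation over 0.1. The number of libraries that correlated best with their own number was 0 to 3. In GMPs over CMPs the mean correlation of same-numbered libraries was 0.169 in the wild type and 0.252 in Prss57-/- cells. For libraries of different number it was -0.0755 and -0.0857.

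For Prss57 loss 0 members were called under every alternative run, and over all genes GMPs gave 2 (5 with DESeq2, 1 with the replicate block, library size alone or all 26 libraries, 0 with at least 10 counts in every library) and CMPs 1 (5 with DESeq2, 2 with the length slope, 0 with at least 10 counts). The filter of at least 10 counts left out Prss57 itself. It had 6 reads in library 2 of the Prss57-/- GMPs and 1 in each Prss57-/- CMP library. Leaving out single libraries gave 1 to 2 genes in GMPs and 1 in CMPs. Values near 0 changed sign as libraries were left out. In GMPs Sqle ranged from -0.092 to 0.053 (0.025, 0.0070 and 0.00 in the others that turned positive) and Srebf2 from -0.12 to 0.079 (0.064 and 0.019 likewise), and in CMPs Srebf2 from -0.32 to 0.062. The interaction of genotype with BMMCs over GMPs gave 1 gene without library 4 of the Prss57-/- GMPs.

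Scaling by library size alone moved the median of all genes to -0.16 in wild-type GMPs over CMPs, with 13.1% of genes called higher and 27.1% lower, and to -0.19 in wild-type BMMCs over GMPs, with 36.4% and 45.6%. Members were then called 4 higher and 8 lower, and 10 and 13. BMMC libraries were the shallowest, and Fdps was too low to be tested between genotypes within them.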
